A study of Mus musculus with 16 samples.

Results

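Serpins are a large family of proteins that fold alike and mostly act as suicide inhibitors of proteases: the target enzyme cuts an exposed loop, the serpin changes shape, and the enzyme stays trapped. Secreted members restrain coagulation, plasminogen activation and leukocyte elastases, whereas clade B members stay inside the cell and restrain granzymes and lysosomal cathepsins that leak into the cytosol. A few members inhibit nothing, among them Serpinh1, the collagen chaperone HSP47 of the endoplasmic reticulum. The lymph node (LN) stroma, the fibroblastic reticular cells and lymphatic endothelial cells (LECs) that build its conduits and sinuses, sits next to protease-rich leukocytes and incoming lymph. The genes described here are the 32 of 48440 annotated genes whose symbol starts with Serpin and that gathered at least 100 unique molecular identifiers (UMIs) over all libraries. Serping1, the C1 inhibitor, and symbols marked as numbered pseudogenes were left out by that rule. The 32 genes held 815173 UMIs, and the other 34 Serpin symbols held 425, 13 of them none. Just inside the minimum were Serpind1 with 108 UMIs and Serpinf2 with 133, and just outside it Serpinb6c with 91 and Serpina3b with 78.

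Single-cell RNA sequencing was performed on PDPN-enriched cells of inguinal LNs from 8-week-old C57Bl/6 mice. The 16 libraries were 3 of draining and 3 of non-draining LNs of mice that received 500000 live cells of the mouse colon carcinoma line MC38 in the lower right flank, 3 of draining and 3 of non-draining LNs of mice that received as many paraformaldehyde-fixed MC38 cells, and 4 of naive LNs. The inoculated mice were sampled on day 12, and the study's methods name 3 mice for each inoculum, with both nodes taken from each. Libraries carry letters, and nothing states that a letter marks a mouse, so p-values measure only the spread between these libraries.

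The libraries held between 7486725 UMIs (fixed non-draining C) and 48945961 UMIs (live draining A), and 5 of the 6 non-draining libraries were the shallowest of all, at up to 13613641 UMIs. Of 68741 barcodes, 50386 cells passed the limits on genes and mitochondrial UMIs, and 29701 of those (58.9%) fell into 19 classes set by marker genes, none of them a serpin. No library pair shared more than 10 barcodes. The classes carry the names of the LN subsets whose markers they show, with "-like": floor (fLEC), ceiling (cLEC), medullary (MedLEC) and cortical (CorLEC) LECs, and T-zone (TRC), marginal (MRC), medullary (MedRC) and perivascular (PRC) reticular cells and follicular dendritic cells (FDC). Among stromal classes, 4 of 5 cLEC, 3 of 4 MRC and 3 of 6 FDC markers were highest in their own class. No class was set for B-zone reticular cells, which the paper identifies by Cxcl13 in the absence of Madcam1 and Tnfsf11. The MRC gate used Cxcl13 beside those markers, so MRC-like cells may include them and their location in the LN was not established. Genes of dissociation stress were not even between groups: the summed level of 10 immediate early and heat shock genes was 2935 to 3874 CPM (UMIs of a gene scaled to 1000000 UMIs of the class in a library) in live draining fLEC-like cells and 9242 to 10460 CPM in live non-draining ones, and it was lower without overlap in cLEC-, MedLEC-, TRC-, MRC- and MedRC-like cells as well. With fixed cells the sum went the other way in fLEC-like cells, at 4476 to 5471 CPM in draining and 2212 to 2754 CPM in non-draining libraries. Naive ones had 4257 to 7817 CPM. In cLEC-like cells it was also higher in fixed draining libraries (7976 to 8324 and 6350 to 6505 CPM), and in the other classes named the fixed ranges overlapped. The part of these genes in the serpin results, and in the live minus fixed differences, was not tested.

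Serpin genes divided between the compartments of the LN. Fibroblastic cells led for the chaperone Serpinh1, which averaged 1384 ± 211 CPM in PRC-like cells (SD, n = 15 libraries) and 907 CPM in MedRC-like cells, against 22.3 CPM in B-like cells. Serpinf1, pigment epithelium-derived factor, a secreted serpin without inhibitory activity, averaged 1322 ± 269 CPM in PRC-like cells and 574 CPM in MedRC-like cells. PRC-like cells were above MedRC-like cells for both genes in 15 of 15 libraries. Serpina10, the protein Z-dependent inhibitor of coagulation factor Xa, averaged 571 ± 87.8 CPM in MRC-like and 461 CPM in TRC-like cells, and MRC-like cells were above in 14 of 16 libraries. Serpina1b, an alpha-1 antitrypsin gene, also led in MRC-like cells, with 177 ± 55.1 CPM (n = 16).

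LECs led for 3 of the 7 Serpina3 genes (Serpina3f, Serpina3g and Serpina3i). Serpina3g, an intracellular inhibitor of cathepsins in the mouse, averaged 880 ± 112 CPM in fLEC-like, 622 CPM in MedLEC-like and 368 CPM in TRC-like cells, and Serpina3f, a close paralog, followed the same order of LEC classes with 250 ± 66.4 CPM and 160 CPM. Serpina3n, an acute phase protein and the mouse gene nearest in use to human alpha-1 antichymotrypsin, averaged 632 ± 269 CPM in fLEC-like cells and 531 ± 115 CPM in TRC-like cells. These classes cannot be ranked for Serpina3n, since fLEC-like cells were above in 7 of 16 libraries. Leukocytes led for 5 of the 8 clade B genes. Serpinb1a, an inhibitor of neutrophil elastase and cathepsin G, averaged 1938 ± 469 CPM in Mast-like cells, and Serpinb6b and Serpinb9, the mouse inhibitor of granzyme B, averaged 877 ± 287 and 612 ± 143 CPM in DC-like cells (n = 16 each).

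**Figure D1:**
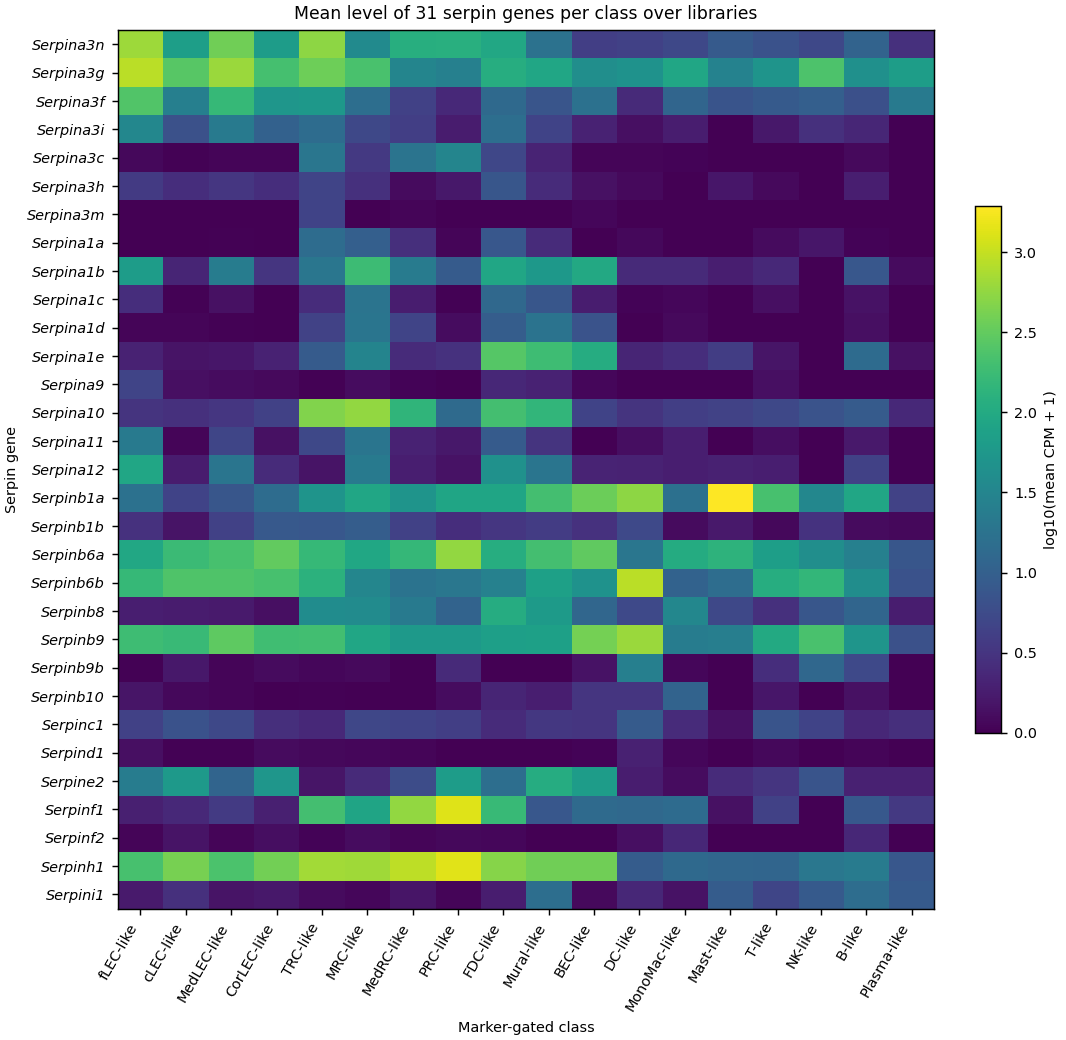
Mean level of 31 serpin genes (rows) in 18 marker-gated classes (columns), averaged over libraries, as log10(mean CPM + 1). Serpina3f, Serpina3g and Serpina3i are brightest in fLEC-like cells, Serpinh1 and Serpinf1 in fibroblastic classes with PRC-like cells at 1384 and 1322 CPM, and Serpinb1a in Mast-like cells at 1938 CPM.

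Most of the remaining genes were weaker. Serpine2, protease nexin 1, led in Mural-like cells (108 ± 59.8 CPM, n = 15), Serpinb8, which inhibits furin, and Serpina1e in FDC-like cells (106 ± 60.4 and 259 ± 255 CPM, n = 12), and Serpina12, the adipokine vaspin, in fLEC-like cells (86.6 ± 27.6 CPM, n = 16). Serpinb6a, an inhibitor of cathepsin G, led in PRC-like cells with 562 ± 118 CPM. Serpinc1 (antithrombin), Serpind1 (heparin cofactor II), Serpinf2 (alpha-2 antiplasmin), Serpini1 (neuroserpin) and Serpinb10 averaged at most 14.6 CPM in any class, and Serpina9, Serpina3h and Serpina3m at most 6.6 CPM. Serpina11 and Serpina3i led in fLEC-like cells (21.5 and 32.2 CPM), Serpina3c in PRC-like cells (30 CPM), Serpina1a in TRC-like cells (13.6 CPM), Serpina1c, Serpina1d and Serpinb1b in MRC-like cells (17.2, 18.1 and 8.46 CPM) and Serpinb9b in DC-like cells (25.3 CPM). The leading class was unchanged for all 32 genes when cells were held to 10% mitochondrial UMIs. Under a stricter gate it was unchanged for 27 of 32, with Serpina1e, Serpina3h, Serpinb8, Serpine2 and Serpini1 the exceptions. That gate asked for a lead of 3 in place of 2 markers over other lineages and of 0.5 SD in place of 0.25 SD over other subsets. All the exceptions had FDC- or Mural-like cells as leading class. Under the stricter gate these classes had too few libraries of at least 10 cells to be ranked. The change of those genes was thus fixed in advance and says nothing about the gate. Serpina1 paralogs share sequence where 3′ reads fall. Of 91-base windows in the last 500 bases of the transcripts, 30% in Serpina1a, 13.9% in Serpina1c, 7.1% in Serpina1d, 8.2% in Serpina3i and 6.3% in Serpina3g occur in another serpin gene, so counts of these genes are uncertain to that degree, and the gene span of Serpina1b overlaps that of Serpina1d.

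The main question of the design is what a live tumor changes in the draining LN. UMIs were summed per library and class and tested with edgeR's quasi-likelihood test over all genes of the class, and a gene counted as called where its p, adjusted by Benjamini-Hochberg, was under 0.05. Between live draining and live non-draining LNs, 29 of the 32 genes had enough counts in at least 1 class, giving 184 pairs of gene and class in 18 classes. Of these, 58 were called (31.5%), 49 higher and 9 lower in draining LNs, beside 7.64% of all 137243 gene and class pairs. An unadjusted p under 0.05 was reached by 101 pairs, and the median log2 fold change of the 184 pairs was 0.41. In 56 of the 58 called pairs the ranges of both groups were separate, as was so for 94 of all 184. Calling itself favours separate ranges. Neither this count nor that of unadjusted p was set beside the share over all genes, so neither is read as particular to serpins. Called pairs involved 21 genes: 12 were higher only, 4 lower only (Serpina3c, Serpina3m, Serpina1e and Serpinb8) and 5 higher in some classes and lower in others, among them Serpina3n, Serpina3g, Serpina3f and Serpina1b. Stromal classes held 50 of the 58 calls and 125 of the 184 tested pairs. Over all genes, calls were also frequent in several stromal classes, at 21.8% in fLEC-, 19.2% in cLEC-, 12.4% in MedLEC- and 11.1% in MRC-like cells. The share was 6.66% in DC-like and 2.24% in B-like cells, so the stromal count alone does not set serpins apart. Serpina1a, Serpina1c, Serpina1d, Serpinb1b, Serpinb9b, Serpinb10, Serpinc1 and Serpini1 were tested and not called, and Serpind1, Serpinf2 and Serpina3h were too sparse to test.

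Between fixed draining and fixed non-draining LNs, 3 of 169 pairs were called (1.78%), beside 0.559% of 131597 gene and class pairs, all 3 in DC-like cells. An unadjusted p under 0.05 was reached by 35, again without the share over all genes beside it, and the median log2 fold change was 0.12. Testing the difference of both draining effects, live minus fixed, called 20 of 169 pairs (11.8%), beside 3.18% of all pairs, 15 of them more positive with live cells. The 2 contrasts share no library, but the fixed non-draining libraries held the fewest cells, for example 12 to 29 MRC-like cells, against 164 to 253 in live draining libraries.

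**Figure D2:**
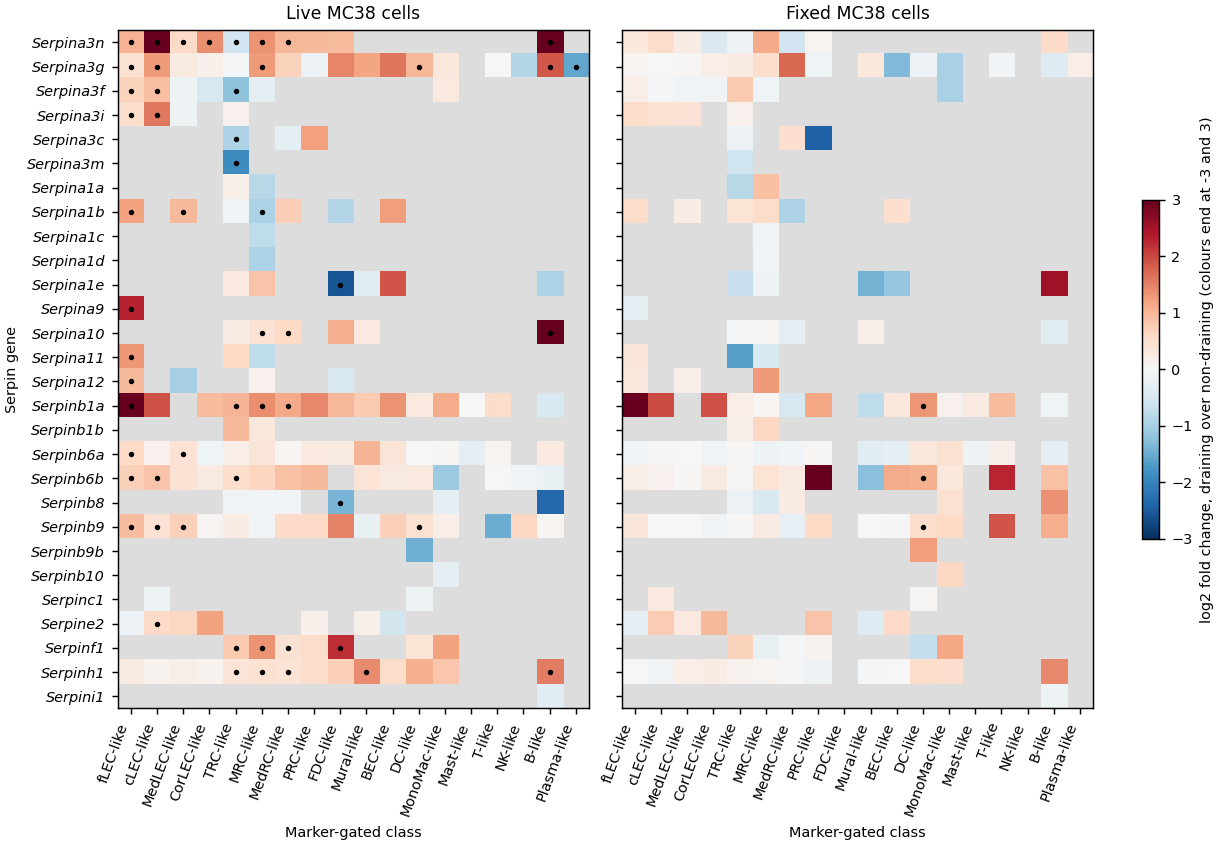
Fitted log2 fold change of 28 serpin genes (rows) by class (columns) between draining and non-draining LNs, for live (left) and fixed (right) MC38 cells, with red higher and blue lower in draining LNs, grey not tested and a dot marking an adjusted p under 0.05 (edgeR). The live panel carries 55 dots and the fixed panel 3, all in the DC-like column.

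Among LECs, fLEC-like cells had the broadest response. Of 15 serpin genes tested, 12 were higher and none lower in live draining LNs, beside 21.8% of all genes called in either direction and 11.8% called higher, and the median log2 fold change of the 15 was 0.77, against -0.01 over all genes. In cLEC-like cells 7 of 12 were higher and none lower, beside 19.2% of all genes called and 10.4% called higher, with a median of 0.72, against -0.004 over all genes. In MedLEC-like cells 5 of 12 were higher, beside 12.4% called and 7.23% called higher, and in CorLEC-like cells 2 of 10 were higher, beside 1.79% called. For the difference between live and fixed cells, 5 of 15 genes passed in fLEC-like cells (8.96% of all genes) and 5 of 12 in cLEC-like cells (12.5%).

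Serpina3n showed the widest gap between LEC classes. In cLEC-like cells its level was 224, 284 and 261 CPM in live draining libraries A, B and C, against 28.8, 18.3 and 18.6 CPM in live non-draining ones. Fixed draining LNs had 32.3, 35.2 and 21.1 CPM, fixed non-draining LNs 27, 13.6 and 16.3 CPM, and naive LNs 37.5, 29.1, 31.9 and 17.7 CPM. The 3 live draining libraries stood apart from all 13 others, which overlapped each other. The log2 fold change was 3.47 ± 0.20 (SE, adjusted p = 2.97e-13, edgeR) with live cells and 0.56 ± 0.27 (adjusted p = 0.61) with fixed cells, and the difference of 2.91 ± 0.39 passed its test (adjusted p = 4.58e-06).

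The cLEC-like cells of live draining LNs held more RNA of fLEC markers. The summed level of the 4 fLEC markers in cLEC-like cells was 460 to 589 CPM in live draining and 42.4 to 126 CPM in live non-draining libraries, with none of the 4 at 0. The same markers were also higher in live draining fLEC-like cells (26878 to 30155 and 13450 to 17692 CPM). Whether fLECs had entered the cLEC-like gate was not tested. In the cLEC-like cells without any UMI of those markers, 46 to 50 per live draining library, Serpina3n was at 198, 182 and 223 CPM, against 21.2, 19.8 and 14.5 CPM in live non-draining libraries. The log2 fold change in those cells was 3.42 (adjusted p = 3.01e-13, edgeR). Serpina3g, Serpinb6b and Serpinb9 kept their calls there, with log2 fold changes of 0.69, 0.78 and 0.66, whereas Serpina3f did not (0.47, adjusted p = 0.465). This check was chosen after seeing the data. It kept 46 to 50 of 172 to 232 cells per live draining library and 63 to 121 of 87 to 185 per live non-draining one, so it compares unlike shares of the class. The 5 cLEC markers themselves summed to 3150 to 3400 CPM in live draining and 4170 to 4339 CPM in live non-draining cLEC-like cells.

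In fLEC-like cells Serpina3n was already abundant, and reached 1138, 1181 and 1146 CPM in live draining LNs, against 612, 605 and 560 CPM in live non-draining LNs. Fixed draining LNs had 578, 584 and 526 CPM, fixed non-draining LNs 502, 415 and 448 CPM, and naive LNs 374 to 520 CPM. Live draining libraries again lay above all others, and the log2 fold change was 1.04 ± 0.10 (adjusted p = 1.56e-10, edgeR), with a difference from fixed cells of 0.73 ± 0.14 (adjusted p = 0.000482). The gate of this class rests on Glycam1, Coch, Madcam1 and Ccl20, whose summed level was itself 26878 to 30155 CPM in live draining and 13450 to 17692 CPM in live non-draining libraries. In MedLEC-like cells Serpina3n was at 487, 526 and 474 CPM in live draining LNs, against 380, 307 and 320 CPM in live non-draining LNs (log2 fold change 0.58 ± 0.13, adjusted p = 0.00161). In CorLEC-like cells it was called (1.38 ± 0.28, adjusted p = 0.0072), but not without live draining B, where the log2 fold change was 0.93 (adjusted p = 0.0503). Nor was it called in CorLEC-like cells without UMIs of the cLEC markers other than Anxa2 (0.60, adjusted p = 0.778). That check kept 34, 18 and 18 of 85, 69 and 64 cells in live draining A, B and C, so it also had fewer counts.

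Among LECs, Serpina3g had its largest fold change in cLEC-like cells, with 498, 561 and 498 CPM in live draining LNs, against 233, 200 and 208 CPM in live non-draining LNs. Fixed draining LNs had 221, 210 and 205 CPM, fixed non-draining LNs 217, 225 and 189 CPM, and naive LNs 202 to 228 CPM, so that all libraries other than live draining lay between 189 and 233 CPM. Its log2 fold change was 1.29 ± 0.08 (adjusted p = 1.08e-12, edgeR), with a difference from fixed cells of 1.30 ± 0.12 (adjusted p = 5.11e-09). In fLEC-like cells, where it is highest, Serpina3g changed less, with 1024, 1101 and 1117 CPM in live draining LNs, against 842, 926 and 724 CPM in live non-draining LNs (0.45 ± 0.08, adjusted p = 8.9e-05). Serpina3f was at 339, 381 and 376 CPM in live draining fLEC-like cells, against 260, 264 and 199 CPM in live non-draining ones (0.66 ± 0.11, adjusted p = 2.79e-05). Serpina3i, a further paralog, was higher in cLEC-like (1.58 ± 0.44, adjusted p = 0.0101) and fLEC-like cells (0.52 ± 0.17, adjusted p = 0.0285). The Serpina3i call in cLEC-like cells was lost without live draining B (adjusted p = 0.0741), and that in fLEC-like cells without live draining A (adjusted p = 0.0958) and without live non-draining B or C (0.0525 and 0.13).

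**Figure D3:**
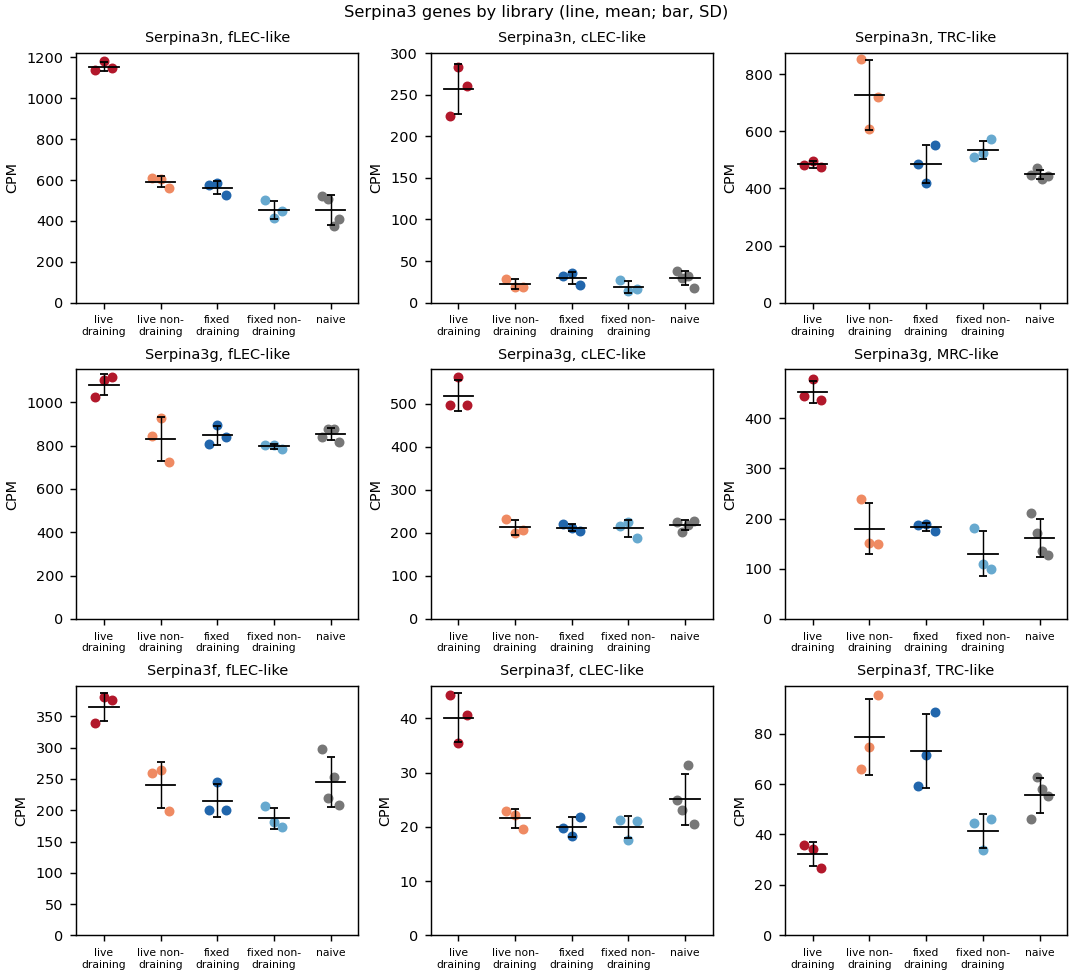
CPM of Serpina3n, Serpina3g and Serpina3f per library (points) in fLEC-, cLEC-, TRC- or MRC-like cells, with group means (lines) and SD (bars), for live draining, live non-draining, fixed draining, fixed non-draining (3 libraries each) and naive LNs (4 libraries). In cLEC-like cells the live draining points of Serpina3n sit between 224 and 284 CPM and all other points at 37.5 CPM or less, while in TRC-like cells Serpina3n and Serpina3f are lower in live draining than in live non-draining LNs.

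The Serpina3 genes lie side by side on chromosome 12, within a cluster of Serpina genes that runs from Serpina10 (chr12:103614786-103631444) to Serpina3n (chr12:104406729-104414329) in GRCm38. Promoters of 26 of the 32 genes, from 250 bases before to 50 after the transcript start (RefSeq, GRCm38.p6), were searched on both strands for TTCNNNGAA, the core of STAT binding sites. It occurred in 5 of the 26 (Serpina3f, Serpina3g, Serpina3i, Serpina11 and Serpinb6a) and in 8.3% of all 32851 promoters. The interferon-response core (GAAA, any 2 bases, GAAA) occurred in 2 (Serpinb6a and Serpinb9, 3.44% of all), the AP-1 core TGANTCA in 6 (Serpina1a, Serpina1b, Serpina1c, Serpina1d, Serpinb8 and Serpinb10, 7.81% of all) and the heat shock core GAANNTTC in 2 (Serpina3c and Serpini1, 7.86% of all). In Serpinb6a the interferon match, starting at base -84, overlapped the STAT match that started at -77. The promoters of 4 Serpina3 genes are shown because all 4 were called higher in live draining fLEC- and cLEC-like cells. Both Serpina3i calls and the Serpina3f call in cLEC-like cells were lost under some alternatives. Of the 4, only Serpina3n was called in MedLEC- and CorLEC-like cells. They are 100-base windows on the plus strand, aligned on the shared run cagagcacagctt, with TTCNNNGAA matches in capitals:
Serpina3f (chr12:104214385-104214484): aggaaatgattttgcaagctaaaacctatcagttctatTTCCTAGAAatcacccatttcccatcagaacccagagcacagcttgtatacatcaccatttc
Serpina3g (chr12:104236085-104236184): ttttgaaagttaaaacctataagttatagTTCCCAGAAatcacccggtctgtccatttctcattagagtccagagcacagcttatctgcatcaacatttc
Serpina3i (chr12:104262991-104263090): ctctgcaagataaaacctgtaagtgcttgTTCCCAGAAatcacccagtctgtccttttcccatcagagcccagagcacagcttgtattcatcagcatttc
Serpina3n (chr12:104406556-104406655): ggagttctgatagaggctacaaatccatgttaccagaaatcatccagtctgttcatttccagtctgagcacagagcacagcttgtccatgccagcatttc
In Serpina3g and Serpina3i the match began 41 bases before the shared run and in Serpina3f 32 bases before it. The Serpina3n window has no match, and at the place of the Serpina3g match it differs by C3A, counted from 1 at the 5′ end of the match.

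Clade B genes were also higher in live draining LECs. Serpinb1a was nearly absent from fLEC-like cells outside live draining LNs: it was at 50.4, 105 and 77.6 CPM there, against 2.94, 3.25 and 1.58 CPM in live non-draining LNs. Fixed draining LNs had 2.36, 2.60 and 2.00 CPM, fixed non-draining LNs had no UMI in any library, and 1 of 4 naive libraries had any (2.42 CPM). The counts were 645 UMIs in live draining LNs, against 7 in live non-draining LNs, a ratio of 30 with an exact 95% interval of 14.5 to 75.0 that covers counting error only, and the fitted log2 fold change was 4.91 ± 0.41 (adjusted p = 2.89e-11, edgeR). The difference from fixed cells was not called (adjusted p = 0.86), in a comparison where the fixed non-draining libraries are all at 0. Mast-like and DC-like cells hold far more Serpinb1a. In fLEC-like cells the summed level of 8 Mast markers was 73.0 to 77.7 CPM in live draining and 59.6 to 128 CPM in live non-draining libraries, with 2 of the 8 at 0 in each group and Gata2, a transcription factor gene, the most abundant, and that of 8 DC markers 261 to 299 CPM and 208 to 246 CPM. The DC ranges did not overlap, nor did those of 8 monocyte and macrophage markers, at 30.7 to 36.1 and 15.8 to 29.4 CPM. Naive libraries had 31.5 to 45.8 CPM of the latter. The part of such cells in the fLEC-like Serpinb1a result was not tested.

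Serpinb9 was at 278, 292 and 281 CPM in live draining fLEC-like cells, against 146, 185 and 152 CPM in live non-draining ones, without overlap (log2 fold change 0.92 ± 0.09, adjusted p = 1.02e-09, edgeR). In MedLEC-like cells it was at 466, 357 and 408 CPM in live draining LNs, against 232, 232 and 317 CPM in live non-draining LNs (0.70 ± 0.14, adjusted p = 0.000356), and in cLEC-like cells the log2 fold change was 0.44 ± 0.10 (adjusted p = 0.00185). Serpinb6b was at 296, 329 and 330 CPM in live draining cLEC-like cells, against 207, 170 and 151 CPM in live non-draining ones (0.85 ± 0.11, adjusted p = 1.35e-06). In fLEC-like cells Serpinb6b was at 202, 245 and 249 CPM in live draining LNs, against 163, 161 and 114 CPM in live non-draining LNs (0.71 ± 0.11, adjusted p = 8.52e-06). Serpinb6a was at 121 CPM in each live draining fLEC-like library, against 89.0, 56.8 and 102 CPM in live non-draining ones (0.60 ± 0.13, adjusted p = 0.000574). Its call in MedLEC-like cells (0.43 ± 0.13, adjusted p = 0.0285) was lost without live draining A or B (adjusted p = 0.0744 and 0.0914) and without live non-draining A or C (0.083 and 0.121).

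Of the other secreted serpins in fLEC-like cells, Serpina12 was at 130, 146 and 142 CPM in live draining LNs, against 74.2, 69.8 and 80.5 CPM in live non-draining LNs (log2 fold change 0.97 ± 0.12, adjusted p = 1.28e-07, edgeR). Serpina1b was at 112, 144 and 142 CPM in live draining LNs, against 65.4, 55.2 and 55.2 CPM in live non-draining LNs (1.21 ± 0.16, adjusted p = 1.71e-07). Serpina11 was at 44.0, 42.6 and 51.1 CPM in live draining LNs, against 22.8, 22.7 and 9.47 CPM in live non-draining LNs (1.30 ± 0.22, adjusted p = 1.74e-05). For all 3 genes the live draining libraries lay above every other library of the class. Serpina9, known from human germinal centre B cells, was sparse, with 103 UMIs in live draining LNs, against 7 in live non-draining LNs, a ratio of 4.80 (2.25 to 12.2) per UMI of the class, and was called (adjusted p = 0.000711). In MedLEC-like cells Serpina1b was higher (0.98 ± 0.32, adjusted p = 0.037), a call lost on leaving out any of 5 live libraries, all but live draining C (adjusted p 0.0578 to 0.163). Serpine2 was higher in cLEC-like cells (0.58 ± 0.18, adjusted p = 0.0187), but not without live draining A (0.54, adjusted p = 0.0594) or live non-draining B (0.36, adjusted p = 0.137).

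Several differences between live and fixed cells in LECs depended on 1 library. In fLEC-like cells the Serpinb9 difference (0.55 ± 0.15, adjusted p = 0.0118, edgeR) was lost without live non-draining A (0.0584) or fixed non-draining C (0.054), and that of Serpinb6a (0.67 ± 0.20, adjusted p = 0.0238) without live non-draining B (0.0876), fixed draining B (0.0506) or fixed non-draining A (0.115). Those of Serpinb6b (0.55 ± 0.18, adjusted p = 0.0458) and Serpina12 (0.66 ± 0.20, adjusted p = 0.0295) were lost on leaving out any of 8 and any of 7 of the 12 libraries of inoculated mice (adjusted p up to 0.197 and 0.113). In cLEC-like cells the Serpinb9 difference (0.45 ± 0.14, adjusted p = 0.0328) was lost without any of 7 libraries (up to 0.14), and that of Serpina3f (0.93 ± 0.27, adjusted p = 0.0201) without live non-draining C (0.0549) or fixed non-draining A (0.0962). The Serpinb9 difference in MedLEC-like cells (0.68 ± 0.19, adjusted p = 0.0289) was lost without any of 7 libraries (up to 0.109). In cells without UMIs of the other class's markers, the differences of Serpinb6b (0.62, adjusted p = 0.0843) and Serpina3f (0.61, adjusted p = 0.522) in cLEC-like cells and of Serpinb9 in MedLEC-like cells (0.57, adjusted p = 0.158) were not called. For MedLEC-like cells those were the cLEC markers other than Anxa2. The differences of Serpina3n and Serpina3g in cLEC-like cells and of Serpina3n in fLEC-like cells passed under every alternative run.

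**Figure D4:**
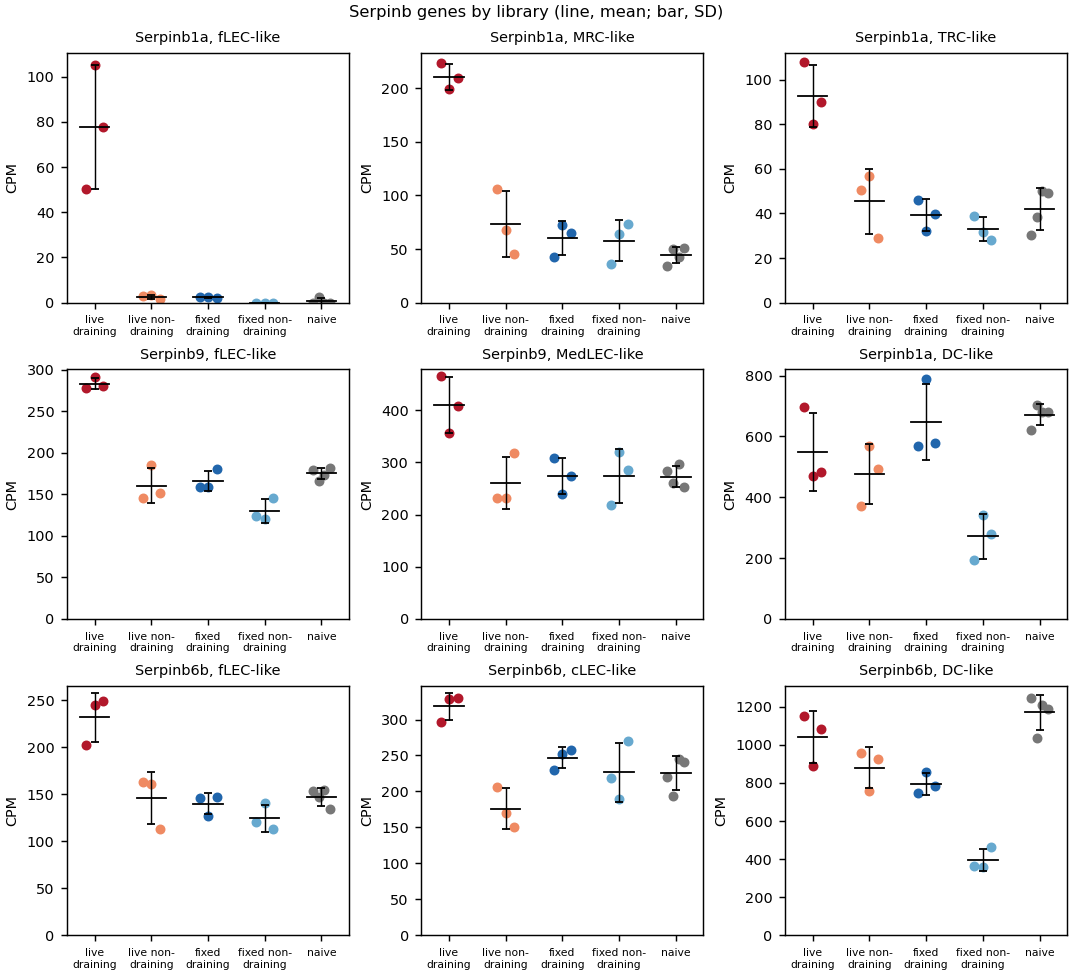
CPM of Serpinb1a, Serpinb9 and Serpinb6b per library (points) in LEC, reticular and DC-like classes, with group means (lines) and SD (bars), for live draining, live non-draining, fixed draining, fixed non-draining and naive LNs. Serpinb1a in fLEC-like cells lies between 50.4 and 105 CPM in live draining LNs and at or below 3.25 CPM elsewhere, and in DC-like cells the fixed non-draining points are the lowest for Serpinb1a and Serpinb6b.

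Fibroblastic classes moved in both directions. In TRC-like cells 4 of 20 serpin genes were higher and 4 lower in live draining LNs, beside 5.4% of all genes called, and the 4 lower ones were all Serpina3 genes. In MRC-like cells 6 of 20 were higher and 1 lower, beside 11.1% called, with a median log2 fold change of 0.36, against -0.008 over all genes. In MedRC-like cells 5 of 13 were higher and 1 lower, beside 3.93% called, and in PRC-like cells none of 11 was called, beside 1.06%, although the median was 0.57 and Serpina3n had a log2 fold change of 0.97 ± 0.31 (adjusted p = 0.176, edgeR). In FDC-like cells 1 of 12 was higher and 2 lower, beside 1.69% called, from 2 live non-draining libraries of 18 and 12 cells. For the difference between live and fixed cells, calls were 1 of the tested genes in TRC-like cells (Serpina3f, beside 1.11% of all genes), 2 in MRC-like cells (Serpina1b and Serpinf1, beside 1.74%) and 2 in MedRC-like cells (Serpina3n and Serpinb1a, beside 1.16%).

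Serpina3f in TRC-like cells went opposite to LECs. It was at 35.8, 34.3 and 26.7 CPM in live draining LNs, against 66.0, 74.7 and 95.5 CPM in live non-draining LNs, whereas fixed draining LNs had 59.3, 71.5 and 88.7 CPM and fixed non-draining LNs 44.6, 33.7 and 46.1 CPM. Naive LNs had 46.2 to 62.6 CPM. The log2 fold change was -1.20 ± 0.17 with live cells (adjusted p = 5.67e-06, edgeR) and 0.78 ± 0.21 with fixed cells (adjusted p = 0.318), a difference of -1.99 ± 0.26 (adjusted p = 8.45e-06, and 0.0872 under the stricter gate). Serpina3n in TRC-like cells was at 483, 497 and 474 CPM in live draining LNs, against 853, 610 and 721 CPM in live non-draining LNs (-0.57 ± 0.10, adjusted p = 0.000231), and naive LNs had 435 to 472 CPM, so that the live non-draining libraries were the ones above the rest. Serpina3c (-0.92 ± 0.21, adjusted p = 0.00547) and the sparse Serpina3m (-1.89 ± 0.50, adjusted p = 0.0194) were lower too, the Serpina3m call being lost without live draining A or B or live non-draining A or C (adjusted p 0.056 to 0.131). Under the stricter gate, the calls of Serpina3f (-0.47, adjusted p = 0.633), Serpina3n (-0.42, adjusted p = 0.467) and Serpina3c (-0.84, adjusted p = 0.286) were lost. Serpina3g in TRC-like cells had a log2 fold change of -0.06 ± 0.09 (adjusted p = 0.774).

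In MRC-like cells, Serpina3g was at 444, 477 and 436 CPM in live draining LNs, against 240, 151 and 150 CPM in live non-draining LNs and 128 to 210 CPM in naive LNs (log2 fold change 1.29 ± 0.16, adjusted p = 1.33e-06, edgeR). Serpina3n was at 94.9, 84.2 and 78.4 CPM in live draining LNs, against 32.5, 24.6 and 54.0 CPM in live non-draining LNs (1.34 ± 0.27, adjusted p = 0.000937). In MedRC-like cells Serpina3n was at 286, 223 and 191 CPM in live draining LNs, against 100, 108 and 143 CPM in live non-draining LNs (0.99 ± 0.16, adjusted p = 0.000152), with a difference from fixed cells of 1.57 ± 0.28 (adjusted p = 0.00233). The live draining libraries were above all other libraries of their class in these 3 cases. The Serpina3n difference in MedRC-like cells was lost without fixed non-draining A (1.31, adjusted p = 0.058) and under the stricter gate (1.21, adjusted p = 0.114).

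Serpinb1a was higher in 3 reticular classes. It was at 224, 199 and 210 CPM in live draining MRC-like cells, against 106, 67.8 and 45.7 CPM in live non-draining ones, at 108, 80.3 and 90.1 CPM in TRC-like cells, against 50.6, 56.7 and 29.1 CPM, and at 60.4, 80.2 and 73.1 CPM in MedRC-like cells, against 36.2, 34.6 and 20.2 CPM. No live draining library overlapped a live non-draining one, and the log2 fold changes were 1.40 ± 0.18, 1.03 ± 0.18 and 1.15 ± 0.22 (adjusted p = 1.58e-06, 0.000148 and 0.000985, edgeR). Serpinb1a in MedRC-like cells differed between live and fixed cells by 1.63 ± 0.34 (adjusted p = 0.00854), a call lost without fixed non-draining B (1.53, adjusted p = 0.0576) and under the stricter gate (1.62, adjusted p = 0.0656). The 8 Mast markers summed to 6.15 to 11.7 CPM in live draining MRC-like cells and 12.5 to 49.6 CPM in live non-draining ones. The 8 DC markers, of a class that holds more Serpinb1a, summed to 118 to 125 CPM in live draining MRC-like cells and 78.9 to 104 CPM in live non-draining ones, higher without overlap, and to 86.0 to 92.0 CPM in live draining and 59.5 to 111 CPM in live non-draining TRC-like cells. Their part in the Serpinb1a result was not tested.

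Serpinf1 was at 128, 137 and 117 CPM in live draining MRC-like cells, against 47.9, 58.5 and 49.9 CPM in live non-draining ones, while naive LNs had 89.7 to 105 CPM. Live draining libraries were the highest and live non-draining ones lay below the naive ones, with a log2 fold change of 1.35 ± 0.17 (adjusted p = 1.61e-06, edgeR) and a difference from fixed cells of 1.56 ± 0.32 (adjusted p = 0.00461), which was lost under the stricter gate (1.88, adjusted p = 0.35). In TRC-like cells Serpinf1 was at 320, 299 and 296 CPM in live draining LNs, against 171, 218 and 152 CPM in live non-draining LNs (0.79 ± 0.12, adjusted p = 2.63e-05). Fixed cells gave 0.68 ± 0.15 there (adjusted p = 0.133), and the difference was 0.11 ± 0.20 (adjusted p = 0.892). The 4 PRC markers summed to 6.52 to 8.72 CPM in live draining TRC-like cells and 0 to 5.37 CPM in live non-draining ones, without overlap, and to 4.07 to 6.66 and 1.71 to 4.15 CPM in MRC-like cells, where the ranges overlap. Their part in the Serpinf1 and Serpinh1 results was not tested. In MedRC-like cells the call (0.45 ± 0.11, adjusted p = 0.0162) was lost without live draining A (adjusted p = 0.127), live non-draining B (0.0621) or live non-draining C (0.0969). Serpina1b went the other way in MRC-like cells, with 127, 120 and 95.8 CPM in live draining LNs, against 241, 197 and 241 CPM in live non-draining LNs (-0.94 ± 0.17, adjusted p = 0.000272), and its difference from fixed cells was -1.50 ± 0.27 (adjusted p = 0.00188). Naive LNs had 127 to 191 CPM. Its paralogs Serpina1a, Serpina1c and Serpina1d had log2 fold changes of -0.83, -0.77 and -0.96 in MRC-like cells and were not called.

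Serpinh1 changed little but in several classes. It was at 802, 836 and 796 CPM in live draining TRC-like cells, against 572, 748 and 559 CPM in live non-draining ones (log2 fold change 0.40 ± 0.10, adjusted p = 0.00947, edgeR), at 785, 784 and 760 CPM in MRC-like cells, against 568, 638 and 515 CPM (0.47 ± 0.13, adjusted p = 0.0149), and at 1192, 948 and 1017 CPM in MedRC-like cells, against 786, 760 and 755 CPM (0.42 ± 0.10, adjusted p = 0.017). The groups did not overlap, but naive LNs had 684 to 875 CPM in MRC-like and 918 to 1008 CPM in MedRC-like cells. The Serpinh1 calls were lost under the stricter gate in all 3 classes (adjusted p = 0.104, 0.319 and 0.127). They were also lost without live non-draining A (0.0548) or C (0.0674) in TRC-like cells, without live draining A (0.0513) or live non-draining C (0.0728) in MRC-like cells, and without live draining A (0.193), live non-draining B (0.0537) or C (0.0527) in MedRC-like cells. Serpina10 was higher in MRC-like cells (0.44 ± 0.12, adjusted p = 0.0138), a call lost without live draining A (0.071) and under the stricter gate (0.30, adjusted p = 0.365). Serpinb6b in TRC-like cells (0.52 ± 0.14, adjusted p = 0.0234) lost its call without live draining B (0.109) or C (0.0624) or live non-draining C (0.262), and under the stricter gate (0.416). In MedRC-like cells Serpina10 (0.60 ± 0.17, adjusted p = 0.0372) lost its call without each of 5 live libraries, all but live draining C (adjusted p 0.0609 to 0.194), with DESeq2 (0.0779) and under the stricter gate (0.14, adjusted p = 0.836).

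**Figure D5:**
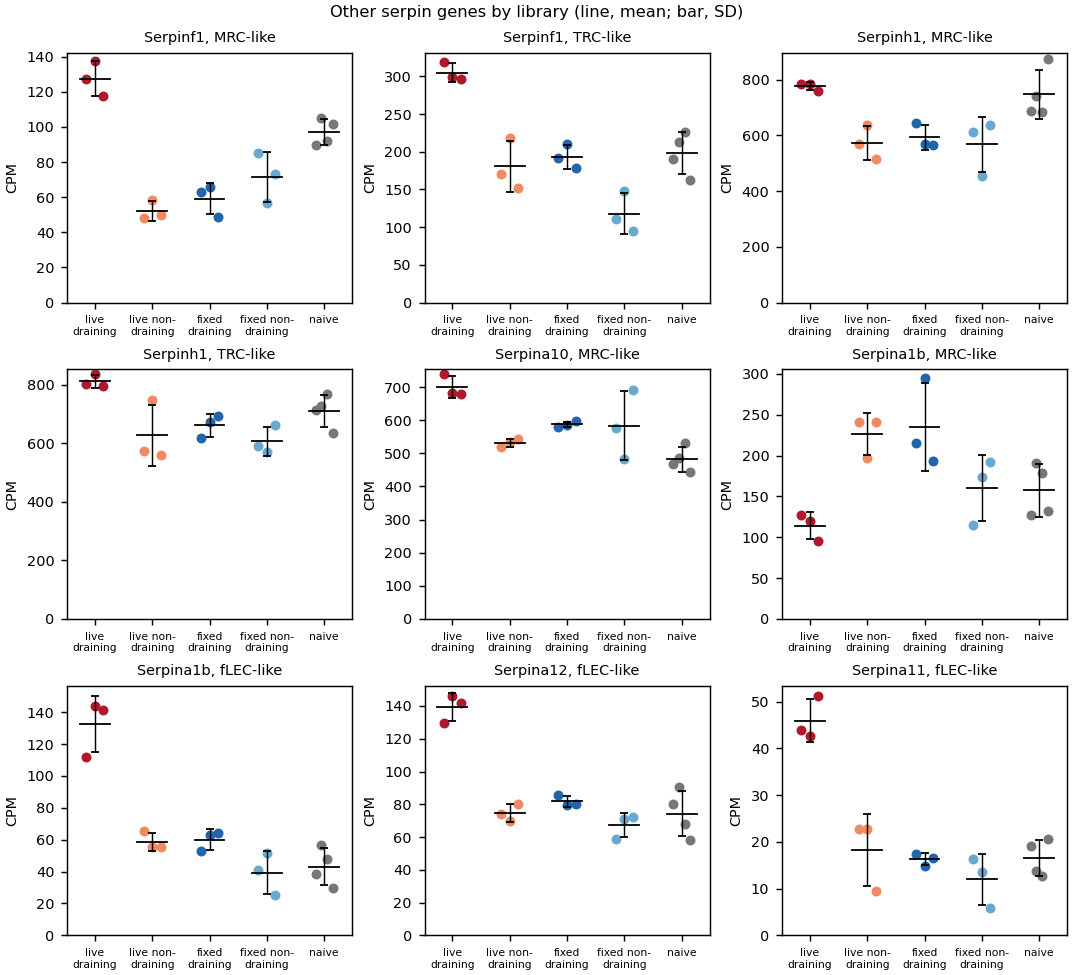
CPM of Serpinf1, Serpinh1, Serpina10, Serpina1b, Serpina12 and Serpina11 per library (points) in the classes named above each panel, with group means (lines) and SD (bars), for live draining, live non-draining, fixed draining, fixed non-draining and naive LNs. Serpina1b is lower in live draining than live non-draining MRC-like cells (95.8 to 127 and 197 to 241 CPM) and higher in fLEC-like cells (112 to 144 and 55.2 to 65.4 CPM).

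FDC- and Mural-like cells were few. In FDC-like cells, with 2 live non-draining libraries of at least 10 cells, Serpina1e was lower (log2 fold change -2.58 ± 0.47, adjusted p = 0.00557, edgeR), Serpinb8 lower (-1.40 ± 0.34, adjusted p = 0.0285) and Serpinf1 higher (2.22 ± 0.50, adjusted p = 0.0226). Each was lost without live non-draining C (adjusted p = 0.193, 0.772 and 0.0658), where 1 live non-draining library is left and is assumed to vary like the other groups. Serpinb8 was also lost without live draining B (0.118) and at 10% mitochondrial UMIs (-0.59, adjusted p = 0.673), and Serpinf1 without live draining B (0.078), without live non-draining A (0.292) and at 10% mitochondrial UMIs (0.104). DESeq2 called neither Serpina1e (0.0829) nor Serpinb8 (0.051). The 4 PRC markers, of the class with the most Serpinf1, summed to 14.8 to 50.6 CPM in live draining FDC-like cells and to 0 in both live non-draining libraries, and their part was not tested. In Mural-like cells Serpinh1 was higher (1.41 ± 0.28, adjusted p = 0.0125), 1 of 9 genes beside 0.963% of all genes, from 2 live draining libraries, and not without live draining C (1.25, adjusted p = 0.155). The 8 fibroblastic markers summed to 3268 to 3545 CPM in those libraries and to 1470 to 2316 CPM in live non-draining ones. In BEC-like cells, blood endothelium, none of 9 genes was called, beside 2.09% of all genes, with 1.34 ± 0.42 for Serpinb1a (adjusted p = 0.0871) and 1.61 ± 0.51 for Serpina3g (adjusted p = 0.0899).

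DC-like cells gave the only serpin calls with fixed cells. There 3 of 9 genes were higher, beside 4.02% of all genes, and with live cells 2 of 9 were higher, beside 6.66%. Serpinb6b was at 745, 859 and 782 CPM in fixed draining LNs, against 366, 360 and 464 CPM in fixed non-draining LNs (log2 fold change 1.06 ± 0.13, adjusted p = 8.44e-05, edgeR). Live draining LNs had 1150, 889 and 1084 CPM, live non-draining LNs 959, 758 and 924 CPM, and naive LNs 1037 to 1247 CPM, so that fixed non-draining libraries were the lowest of all 16. The 8 fibroblastic markers in DC-like cells summed to 65.8 to 78.0 CPM in fixed draining and 10.1 to 31.2 CPM in fixed non-draining libraries, and their part was not tested. Serpinb1a was at 568, 790 and 580 CPM in fixed draining LNs, against 195, 341 and 280 CPM in fixed non-draining LNs (1.33 ± 0.19, adjusted p = 0.000265), and naive LNs had 622 to 705 CPM. Serpinb9 was higher with both inocula, at 579, 586 and 498 CPM in fixed draining and 341, 420 and 452 CPM in fixed non-draining LNs (0.52 ± 0.12, adjusted p = 0.0169), and at 887, 764 and 799 CPM in live draining and 593, 713 and 576 CPM in live non-draining LNs (0.45 ± 0.12, adjusted p = 0.018).

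The effects in DC-like cells differed between live and fixed cells for Serpinb6b (-0.76 ± 0.18, adjusted p = 0.0288, edgeR) and Serpinb1a (-1.04 ± 0.26, adjusted p = 0.0408), beside 1.45% of all genes, and each was lost on leaving out any of 8 of the 12 libraries of inoculated mice (adjusted p 0.051 to 0.111 for Serpinb6b and 0.0533 to 0.165 for Serpinb1a). The Serpinb9 calls were lost without live draining A (0.0739), live non-draining A (0.0662) or C (0.0903), and, with fixed cells, without fixed draining B (0.0827) or fixed non-draining A (0.156). Under the stricter gate Serpinb9 was at an adjusted p of 0.145 with live and 0.263 with fixed cells. Serpina3g was called in live draining DC-like cells (1.00 ± 0.29, adjusted p = 0.0396), with 30, 96.0 and 72.6 CPM, against 39.3, 24.3 and 35.6 CPM in live non-draining ones. These ranges overlap, and the call was lost without live draining B or C or live non-draining B or C (0.0901 to 0.348), under the stricter gate (0.78, adjusted p = 0.154) and at 10% mitochondrial UMIs (0.0539). The 8 fibroblastic markers summed to 110 to 123 CPM in live draining DC-like cells and to 42.2 to 79.3 CPM in live non-draining ones, without overlap, and their part was not tested. Serpinb1a in Mast-like cells, its leading class, had a log2 fold change of -0.02 ± 0.25 (adjusted p = 0.996).

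In B-like cells 4 of 11 serpin genes were higher in live draining LNs, beside 2.24% of all genes. Stromal classes held higher levels of all 4, but also of serpin genes not called in B-like cells, so this does not set the 4 apart. For example, Serpinb6b averaged 39.5 CPM in B-like and 242 CPM in MedLEC-like cells. Serpina3g was at 86.8, 69.3 and 63.6 CPM, against 15.6, 21.4 and 27.4 CPM in live non-draining LNs (log2 fold change 1.86 ± 0.24, adjusted p = 8.13e-05, edgeR), and Serpinh1 at 37.9, 38.9 and 38.8 CPM, against 18.0, 10.7 and 8.66 CPM (1.53 ± 0.28, adjusted p = 0.00263). Serpina3n was at 76.7, 25.6 and 16.5 CPM, against 4.91, 3.05 and 5.77 CPM (3.12 ± 0.57, adjusted p = 0.00263; 2.16 and 0.0653 without live draining A), and Serpina10 was called with 137 and 7 UMIs, a ratio of 8.64 (4.08 to 21.9). The 8 fibroblastic markers summed to 316 to 354 CPM in live draining B-like cells and to 58.0 to 171 CPM in live non-draining ones, and the 8 LEC markers to 92.9 to 131 and 33.6 to 44.2 CPM, with no marker at 0. In B-like cells without any UMI of those markers, Serpina3g (1.61, adjusted p = 0.00194) and Serpinh1 (2.01, adjusted p = 0.0152) were called, while Serpina3n and Serpina10 were too sparse to test. Those cells were 241 to 315 of 581 to 763 per live draining library and 157 to 254 of 198 to 375 per live non-draining one. The Serpina3g effect in B-like cells differed from that with fixed cells by 2.25 ± 0.39 (adjusted p = 0.00674), a call lost without fixed non-draining A (1.79, adjusted p = 0.0742) and in the B-like cells without those markers (1.62, adjusted p = 0.179). In Plasma-like cells the 1 gene tested, Serpina3g, was lower (-1.56 ± 0.33, adjusted p = 0.0126), beside 1.97% of all genes, and was not called without live draining A (0.0735) or B (0.0575) or live non-draining A (0.183).

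Lists of related genes were described in the same fits. They were chosen with earlier results of these data known, and the paper reports increases of Cxcl9 and Cxcl10, both on the interferon-gamma list, in fLECs of this series. Interferon-gamma targets were higher for 16 of 16 in fLEC-like cells (median log2 fold change 1.91) and 14 of 16 in MedLEC-like cells (1.43), beside 11.8% and 7.23% of all genes called higher, among them the chemokine gene Cxcl9 (5.91 ± 0.30 in fLEC-like cells, adjusted p = 4.23e-17, edgeR) and the GTPase genes Gbp2 (2.90 ± 0.15) and Iigp1 (2.59 ± 0.14). In cLEC-like cells 4 of 16 were higher and 2 lower, beside 19.2% of all genes called. In TRC-like cells 12 of 16 were lower and none higher (median -0.79), beside 5.4% called, with Iigp1 at -1.27 ± 0.11 (adjusted p = 6.64e-10) and Cxcl9 at -1.82 ± 0.21 (adjusted p = 2.55e-07). Acute phase and STAT3 target genes were higher for 5 of 9 in fLEC-, cLEC- and MedLEC-like cells, beside 11.8%, 10.4% and 7.23% of all genes called higher, and for none of 11 in TRC-like cells, beside 5.4% called. Lcn2, which encodes lipocalin 2, rose by 2.89 ± 0.15 (adjusted p = 6.98e-17) and Lbp, the lipopolysaccharide-binding protein gene, by 3.43 ± 0.19 (adjusted p = 4.96e-16) in fLEC-like cells, and Lbp by 1.42 ± 0.10 in cLEC-like cells (adjusted p = 9.58e-12).

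On the protease side, 3 of 9 genes of plasminogen activation and coagulation were higher and 5 lower in fLEC-like cells, beside 21.8% of all genes called, with Plaur, the urokinase receptor gene, at 3.54 ± 0.38 (adjusted p = 4.26e-09, edgeR) and the annexin II complex genes Anxa2 and S100a10 at 1.63 ± 0.14 and 2.45 ± 0.24. In MedLEC-like cells 5 of 9 were higher, beside 12.4% called, and in MRC-like cells only Anxa2 of 8 (2.05 ± 0.16, adjusted p = 2.85e-10), beside 11.1% called. Of the proteases that serpins inhibit, 1 of 6 was higher and 2 lower in fLEC-like cells, where Ctsg, cathepsin G, had -1.79 ± 0.48 (adjusted p = 0.00526), and 2 of 5 were lower in MRC-like cells, Ctss and Ctsl. Protease inhibitors of other families were higher for 5 of 11 and lower for 1 in fLEC-like cells, beside 21.8% of all genes called and 11.8% called higher, led by the metalloprotease inhibitor gene Timp1 (2.31 ± 0.14, adjusted p = 4.63e-15), which was also higher in MRC-like cells (4.42 ± 0.83, adjusted p = 0.000538). Beside Serpinh1, 3 of 17 collagen chaperones and enzymes were higher in TRC-like and in MRC-like cells and 3 of 16 in MedRC-like cells, and none lower, beside 5.4%, 11.1% and 3.93% of all genes called. Ppib, a proline isomerase of collagen folding, was among them in all 3 classes (0.53 ± 0.10, 0.66 ± 0.13 and 0.63 ± 0.12). Immediate early and stress genes were lower for 10 of 10 in fLEC-, cLEC-, MedLEC-, TRC- and MedRC-like cells and for 7 of 10 in MRC-like cells. Of all genes, 21.8%, 19.2%, 12.4%, 5.4%, 3.93% and 11.1% were called in either direction in these classes, in the same order.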

How the data were processed

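The authors deposited counts of UMIs per gene and barcode for 16 10x 3′ libraries, made with Cell Ranger 3.0.1 on mm10 per the labels, without normalization. Cells with 200 to 6000 genes and at most 30% mitochondrial UMIs were kept. A cell entered a lineage with at least 3 of its 8 markers and a lead of 2 over every other lineage, and LECs and fibroblastic cells a subset by mean scaled marker level with a margin of 0.25 SD. This scoring was settled after seeing the data. No doublet caller was run: 14553 cells showed 3 markers of 2 lineages, and the lead requirement stood in for one, leaving 17030 cells outside every lineage. UMIs were summed per library and class with at least 10 cells and fitted with edgeR 4.0.16 (TMM, filterByExpr, glmQLFit, R 4.3.3), group as the only term, all 16 libraries in 1 fit per class. CPM is a gene's UMIs per 1000000 UMIs of the class in that library, without TMM. DESeq2 1.42.0 was an alternative. On counts simulated for the live comparison, 73%, 74%, 72% and 57% of genes changed by a factor of 2 were recovered in fLEC-, cLEC-, TRC- and MRC-like cells (10725, 11624, 11459 and 10193 genes), and for the fixed comparison 69%, 72%, 58% and 38%. Per-library values are given for up to 12 called members with the smallest adjusted p in stromal classes and for Serpina3n, Serpina3g, Serpinb1a and Serpinh1, and up to 4 genes of each related list by smallest p; values of other members shown beside them were chosen after they were seen. Members and lists were chosen with earlier results of these data known. Gene positions follow GENCODE vM21. Counts over the family include 1 member whose values are not reported here.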

Additional observations from a re-analysis of the deposited data

Results flagged for a closer look

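Effects of drainage (draining over non-draining LNs) with live and with fixed cells differed by edgeR's test of the difference for 20 pairs of gene and class, given here as live minus fixed on the log2 scale. In LECs these were Serpina3n (2.91), Serpina3g (1.30), Serpina3f (0.93), Serpinb6b (0.73) and Serpinb9 (0.45) in cLEC-like cells, Serpina3n (0.73), Serpinb6a (0.67), Serpina12 (0.66), Serpinb6b (0.55) and Serpinb9 (0.55) in fLEC-like cells, and Serpinb9 (0.68) in MedLEC-like cells. In fibroblastic cells they were Serpinb1a (1.63) and Serpina3n (1.57) in MedRC-like cells, Serpinf1 (1.56) and Serpina1b (-1.50) in MRC-like cells, and Serpina3f (-1.99) in TRC-like cells. In leukocytes they were Serpina3g (2.25) in B-like cells, Serpinb6b (-0.76) and Serpinb1a (-1.04) in DC-like cells, and Serpinb9 (-3.37) in T-like cells. Serpinb9 in T-like cells was at 68.9, 20.2 and 19.8 CPM in live draining and 146, 71.7 and 117 CPM in live non-draining LNs, and at 92.4, 313 and 147 CPM in fixed draining and 40.8, 97.2 and 23.4 CPM in fixed non-draining LNs. Neither effect alone passed its test (adjusted p = 0.0929 and 0.255), and the call was lost on leaving out any of 6 of those 12 libraries: live draining B or C, live non-draining A, fixed draining B, and fixed non-draining A or C (adjusted p 0.06 to 0.134).

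Among 50 groups of 4 naive libraries checked, 3 held a library far from the others by Dixon's criterion, and chance gives about 1 in 20. Serpina3n in MRC-like cells was at 20.4 CPM in naive A and at 35.2 to 36.4 CPM in the others. Serpinb1a in fLEC-like cells was at 2.42 CPM in naive B and 0 in the others, and Serpinf1 in FDC-like cells at 197 CPM in naive C and 41.1 to 62.6 CPM in the others. With all other values at 0, the criterion flags Serpinb1a whatever its level in naive B, so the chance rate above does not apply to it.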

How the results depend on the processing

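No result reversed. The 58 live calls became 86 with no filter on low counts, 52 with DESeq2, 61 with the 12 libraries of inoculated mice, 51 at 10% mitochondrial UMIs and 34 under the stricter gate, which tested 139 pairs, and 43 to 56 on leaving out a library. The 3 fixed calls became 20 with no filter, 4 with DESeq2 and 2 to 4 on leaving out a library. The 20 differences became 38 with no filter, 13 under the stricter gate and 13 to 22 on leaving out a library, with 13 without fixed non-draining A. Of the called pairs, 30 of 58 live, 2 of 3 fixed and 4 of 20 differences kept their call under every alternative in which they were tested; 96 of 688, 4 of 36 and 83 of 366 single values lost it. With the letter as a replicate block, 58 live pairs (51 of the original), 7 fixed pairs (2 of the original) and 20 differences were called. The block ended the live calls of Serpina10 in MRC-like (0.43, adjusted p = 0.0531), Serpina3g in DC-like (0.91, 0.0834), Serpinb9 in DC-like (0.44, 0.0789) and Serpinh1 in Mural-like cells (1.33, 0.197) and the fixed call of Serpinb9 in DC-like cells (0.51, 0.0671). Whether letters pair the libraries was not settled. Same-letter deviations correlated at -0.128 to 0.158 over 93 pairs, with 4 above 0.1, and 35 were highest with their own letter. That is near the rate of picking among letters A to C at random. Counting noise in groups of 3 libraries can hide an effect of the mouse, so this check cannot exclude pairing. The check of cells without UMIs of other markers was added after seeing the data. Fixed non-draining libraries were the shallowest as a group, with 7486725 to 13613641 UMIs.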
